A study of Homo sapiens with 4 samples.

Results

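Slowly spliced introns of K562 cells with wild-type SF3B1 are introns whose splice junction was present in only a minority of the reads over them, or little more, while the RNA was still bound to chromatin. An intron was taken when it was at least 60 nt long and overlapped no intron of its gene with more junction reads. It also needed at least 20 reads in both wild-type samples and 10 to 60% of those reads spliced in both. The rule selected 304 introns in 182 genes, of which 14 were tied with an overlapping intron and 298 remained distinct once tied pairs were merged. They are 4.92% of the 6177 introns that met every other part of the rule (eligible introns, in 892 genes), out of 209481 unique introns placed on GENCODE 29 (GRCh38). The introns were thus chosen by their spliced share and read number in the WT samples, so these WT values are a description. Spliced shares in the mutant samples did not enter the choice, but junction reads of all 4 samples ranked overlapping introns. Ranked on WT junction reads alone, the set held 299 introns. "Slowly spliced" names a low spliced share in nascent RNA, and no rate was measured.

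K562 is an established line from a chronic myeloid leukaemia. Expression of a modified SF3B1 allele, wild type (WT, 2 samples) or with the K700E substitution (2 samples), was induced in all 4 samples with doxycycline at 1 µg/ml, and cells were harvested on day 4. RNA was taken from the chromatin fraction in buffers with α-amanitin, which blocks RNA polymerase II, depleted of polyadenylated and ribosomal RNA, and read with PacBio long reads. The labels do not say whether the lines are clones, how much unmodified SF3B1 remains, or whether replicates came from separate cultures. A p-value therefore measures sample-to-sample spread alone, and that spread may be technical.

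Most introns are removed by the spliceosome while RNA polymerase II is still transcribing the gene. The U1 small nuclear ribonucleoprotein binds the 5′ splice site, and the U2 particle, of which SF3B1 is a subunit, binds the branch point region upstream of the 3′ splice site. Some introns are removed late or kept in nuclear RNA, a behaviour known for genes of splicing regulators, and many intronic small nucleolar RNAs (snoRNAs) are processed out of their host introns after splicing.

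The sequences of several of these introns were read 5′ to 3′ from GENCODE 29 transcripts that span them on GRCh38. The first set carries small RNA genes, which 16 of the 304 introns did. It is shown because 2 of the 3 lie in the translation factor gene EIF4A2, whose eligible introns were all slowly spliced, and the third in the chaperone gene HSPA8. Capitals mark the annotated small RNA: a gene listed by its family name RF00092 (positions 50 to 172 of the intron), SNORA63 (36 to 167) and SNORD14D (64 to 150).

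EIF4A2 intron 6 (chr3:186786274-186786501, plus strand): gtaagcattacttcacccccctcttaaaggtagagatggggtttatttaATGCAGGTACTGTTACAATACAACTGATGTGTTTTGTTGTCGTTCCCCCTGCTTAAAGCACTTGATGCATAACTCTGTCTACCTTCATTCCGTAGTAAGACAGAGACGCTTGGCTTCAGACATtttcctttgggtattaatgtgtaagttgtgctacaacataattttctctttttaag
EIF4A2 intron 8 (chr3:186787265-186787494, plus strand): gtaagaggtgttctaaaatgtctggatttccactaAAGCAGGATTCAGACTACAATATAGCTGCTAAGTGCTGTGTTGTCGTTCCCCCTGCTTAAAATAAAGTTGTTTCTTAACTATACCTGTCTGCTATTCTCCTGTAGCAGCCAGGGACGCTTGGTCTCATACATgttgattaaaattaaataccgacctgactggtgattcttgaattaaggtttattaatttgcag
HSPA8 intron 6 (chr11:123058831-123059058, minus strand): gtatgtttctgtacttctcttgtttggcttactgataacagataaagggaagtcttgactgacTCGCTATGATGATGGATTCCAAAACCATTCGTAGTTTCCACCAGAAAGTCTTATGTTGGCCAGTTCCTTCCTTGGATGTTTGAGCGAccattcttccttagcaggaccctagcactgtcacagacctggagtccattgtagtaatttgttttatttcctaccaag

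The second set holds short introns without a small RNA gene, and the named results below turn on them. EIF4A2 intron 5 had the most reads among the translation factor introns, HNRNPU intron 2 stood higher in both K700E samples and XPOT intron 13 stood lower in both. Capitals mark the first 6 and the last 2 bases of the intron.

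EIF4A2 intron 5 (chr3:186786052-186786163, plus strand): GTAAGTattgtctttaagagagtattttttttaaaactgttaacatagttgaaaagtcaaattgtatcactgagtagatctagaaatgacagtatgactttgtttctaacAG
HNRNPU intron 2 (chr1:244862535-244862618, minus strand): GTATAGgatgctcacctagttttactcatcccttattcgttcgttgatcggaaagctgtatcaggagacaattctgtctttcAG
XPOT intron 13 (chr12:64425183-64425337, plus strand): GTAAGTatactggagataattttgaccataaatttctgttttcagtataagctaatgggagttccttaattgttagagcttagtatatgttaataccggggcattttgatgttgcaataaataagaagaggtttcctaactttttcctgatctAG

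The third set gives the 5′ splice sites of the 7 slowly spliced introns of EIF4A2 and of an intron of SRSF10, with 3 exonic bases before the first 6 intronic bases in capitals. The consensus is CAGGTAAGT, of 9 bases. The EIF4A2 sites matched it at 6 to 8 positions, with 8 at intron 6 and 6 at introns 4 and 5. The SRSF10 site carries the letters GTATCCT that mark a U12-type 5′ splice site, removed by the minor spliceosome.

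EIF4A2 intron 2 (chr3:186784478-186784563, plus strand): gagGTAAGAaa
EIF4A2 intron 4 (chr3:186785102-186785882, plus strand): cagGTATTGat
EIF4A2 intron 5 (chr3:186786052-186786163, plus strand): tttGTAAGTat
EIF4A2 intron 6 (chr3:186786274-186786501, plus strand): cagGTAAGCat
EIF4A2 intron 7 (chr3:186786646-186787126, plus strand): gagGTAACTgt
EIF4A2 intron 8 (chr3:186787265-186787494, plus strand): ctgGTAAGAgg
EIF4A2 intron 9 (chr3:186787585-186787802, plus strand): ttgGTAAGTct
SRSF10 intron 1 (chr1:23977454-23977910, minus strand): gatGTATCCta

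GTATCCT or ATATCCT, searched on the transcribed strand at the first intronic base, stood in 1 of the 114 slowly spliced introns with a 5′ site sequence and in 7 of the 790 such eligible introns. A sequence of the site was at hand for only 114 of the 304 introns. Any summary of splice site strength or base composition over the set was therefore void, and none is given.

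The samples held 1346733 and 1185006 reads over unique introns in WT and 459681 and 909621 in K700E, so that K700E replicate 1 (K700E 1) was the shallowest. The slowly spliced introns had medians of 41.5 and 32 reads in WT 1 and WT 2, 10 in K700E 1 and 26 in K700E 2. With these numbers the median width of a 95% Wilson interval on an intron's spliced share was 27.0 and 30.6 percentage points in WT and 47.7 and 33.7 in K700E. The intervals cover counting error only, since reads amplified by PCR carry no molecular identifiers. Of the 304 introns 159 had at least 10 reads in every sample. Genotype tests and the counts of introns above or below WT were limited to these. Values given for single genes, single introns and neighbouring introns also include introns with fewer reads. Introns of 14 erythroid and leukaemia marker genes held 3952 and 5513 reads in WT and 1394 and 2687 in K700E, most of them over the transferrin receptor gene TFRC. KLF1 was at 0 in every sample. Introns of 14 epithelial marker genes held 68 to 108 reads, with 5 of the genes at 0 in every sample, although the labels give an epithelial cell type.

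**Figure D1:**
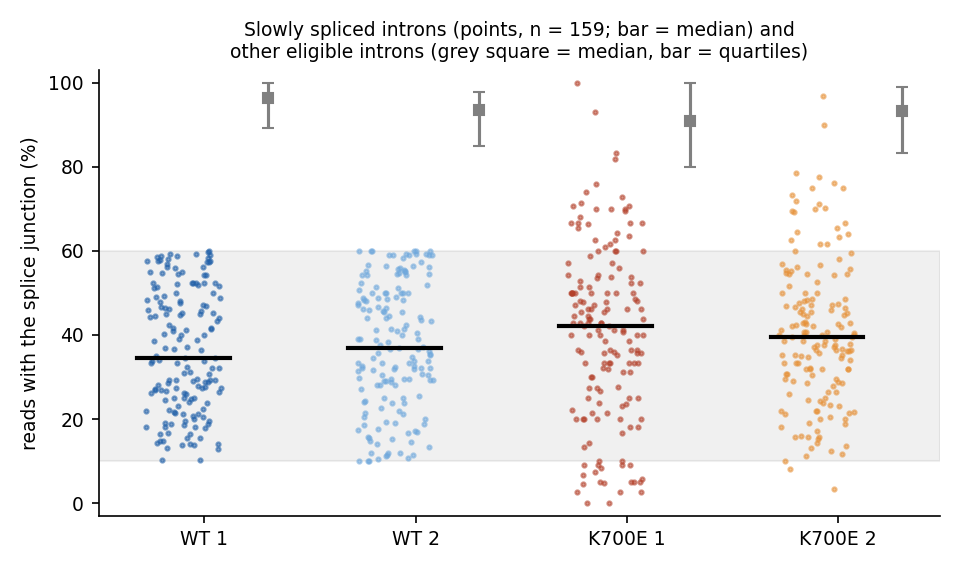
Percent of reads with the splice junction (y axis) for the 159 slowly spliced introns read 10 times or more in each sample, by sample; points are introns, black bars their medians, grey squares and bars the median and quartiles of the 3299 other eligible introns, and the shaded band the 10 to 60% used for the choice. Medians of the slowly spliced introns lie from 34.6 to 42.1%, those of the other introns from 90.9 to 96.4%.

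In the K700E samples, whose spliced shares the choice did not use, most of these introns again had a low spliced share. Over the 159 introns the median spliced share was 34.6% in WT 1, 36.9% in WT 2, 42.1% in K700E 1 and 39.5% in K700E 2. The 3299 other eligible introns with the same depth had medians of 96.4% and 93.5% in WT against 90.9% and 93.3% in K700E. In K700E 1, 113 of the 159 lay between 10 and 60%, 27 above and 19 below. In K700E 2, 135 lay between, 22 above and 2 below. In both K700E samples together 100 of 159 stayed in that range (62.9%, Wilson interval 55.2 to 70.0%), against 84 of the 3299 other eligible introns (2.55%). The interval treats introns as independent, although introns of a gene can share reads and tied introns are counted separately. It holds no spread between samples and is likely too narrow. None of the 159 was spliced in 90% or more of reads in both K700E samples. Among the 61 introns with 20 reads or more in each sample, 33 stayed in the range (54.1%).

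The same rule applied to the K700E samples in place of WT selected 61 of the 1192 introns with enough reads there. Of these, 33 also belonged to the WT set, which is 54.1% of the K700E set and 10.9% of the WT set. They are the same 33 introns as those counted above with 20 reads or more in each sample, so this adds no separate result. Only 61 of the 304 introns had the depth in K700E to be shared. With the rule applied to WT 2 alone, 288 introns with 10 reads or more in each sample had medians of 47.3% in WT 1, which was then not used, and of 43.8% and 43.0% in K700E 1 and 2. With WT 1 alone, 296 introns had medians of 48.8% in the unused WT 2 and of 50% and 47.0% in the K700E samples. In both cases the K700E medians were close to the median of the unused WT sample. Overlapping introns were still ranked on junction reads of all 4 samples.

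The slowly spliced introns were short and lay in shorter transcripts, close to both ends. Their median length was 311 nt (95% order-statistic interval 273 to 365), against 1193 nt for all eligible introns and 1760 nt for the 3233 eligible introns spliced in 90% or more of reads in both WT samples. The shortest, in the triosephosphate isomerase gene TPI1 and the chaperonin gene CCT8, had 74 nt, and the longest, in COA1, which encodes a mitochondrial assembly factor, had 63706 nt. The median distance from the 3′ splice site to the annotated transcript end was 9901 nt, against 41683 and 48991 nt in the same reference groups. The median distance from the transcript start was also lower, at 9136 nt against 35438 and 39296 nt, so that a short distance to the end does not by itself mark a 3′ position. Since several introns of a gene can share reads, 1 intron per gene was also compared, and the medians were then 317.5 against 611 nt of length and 11192.5 against 31173 nt of distance. A length that is a multiple of 3 was found in 33.6% of them and in 33.1% of eligible introns, and the flanking exons had medians of 129 and 123.5 nt against 129 and 129 nt. How reads were assigned to introns was not given, and whether intron length affects the measured share was not tested. Of 159 eligible introns of 20 kb or more, 146 had a read without the junction in a WT sample.

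The share of slowly spliced introns was highest at 151 to 400 nt and lower at each longer distance to the transcript end. Of eligible introns of 60 to 150 nt, 10.5% were slowly spliced, of those of 151 to 400 nt 13.6%, of 401 to 1500 nt 4.26%, of 1501 to 5000 nt 1.05% and of more than 5000 nt 1.49% (13 of 873). Most of these 13 overlapped another intron with junction reads, and reads spliced there can be among those counted as unspliced. Without such overlap, 1 of 634 eligible introns of more than 5000 nt was slowly spliced. Of introns within 5 kb of the transcript end 18.2% were slowly spliced, against 8.59% from 5 to 20 kb, 3.20% from 20 to 60 kb and 1.46% of those more than 60 kb away. Among introns of 151 to 400 nt the share was 25.2% (37 of 147) within 5 kb of the end and 3.59% (6 of 167) beyond 60 kb. The 3′ end of each read, which marks the polymerase, was not used here.

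**Figure D2:**
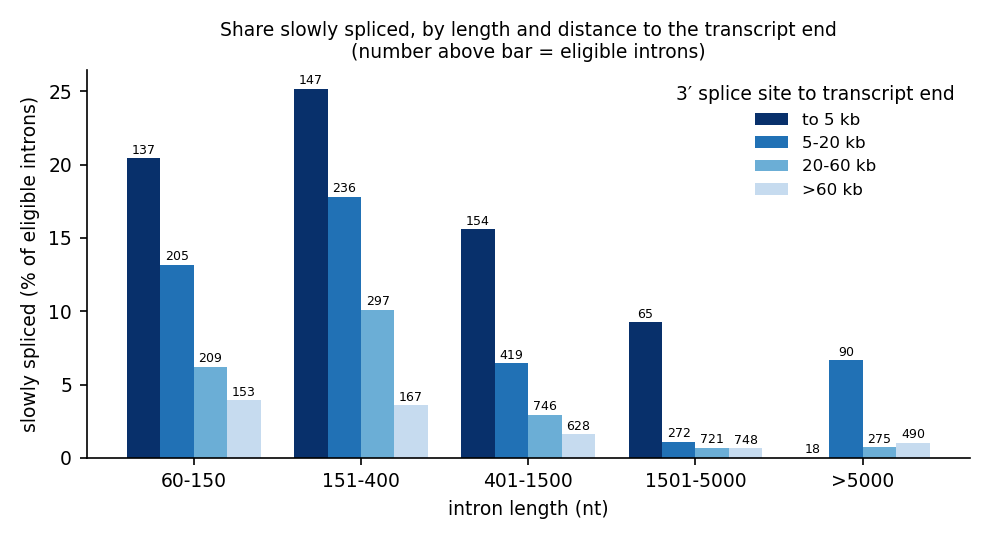
Share of eligible introns that were slowly spliced in WT (y axis, percent) by intron length (x axis, nt) and by distance from the 3′ splice site to the transcript end (colours, kb); the number above each bar is the eligible introns in it. The share reaches 25.2% for introns of 151 to 400 nt within 5 kb of the end and is 0.668% for introns of 1501 to 5000 nt more than 60 kb from it.

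By place in the transcript, 256 of the 304 were internal introns (84.2%, against 93.6% of eligible introns), 27 were last introns (8.88% against 2.27%) and 16 first introns (5.26% against 3.58%). The coding sequence was interrupted by 212 of them (69.7% against 90.3%), while 16 lay in 5′ UTRs, 8 in 3′ UTRs and 68 in non-coding transcripts (22.4% against 7.30%). The non-coding share was 11.3% without WT replicate 2, and 5.26% (2 of 38) with at least 50 reads in both WT samples. At 50 reads the last-intron share was 2.63% (1 of 38). The transcripts had a median of 13 introns, against 28 for eligible introns.

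An annotated retained-intron transcript spanned 77 of the 304 introns (25.3%), against 4.37% of eligible introns and 0.897% of those spliced in 90% or more of WT reads. The share was also higher within each of 3 length ranges. From 60 to 150 nt it was 28.4% against 13.3% of the eligible introns outside the set, from 151 to 400 nt 35.7% against 7.51% and from 401 to 1500 nt 18.1% against 2.52%. The 36 introns with such a transcript and enough reads had lower median spliced shares than the 123 without in all 4 samples, a difference that was not tested. The medians were 27.4% against 37.3% in WT 1, 32.7% against 39.0% in WT 2, 36.4% against 42.9% in K700E 1 and 29% against 41.9% in K700E 2. A small RNA gene lay inside 16 introns (5.26%), against 0.923% of eligible introns, and 14 of the 16 held a snoRNA or snoRNA family gene.

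Unspliced reads are taken as those over the intron without its annotated junction, so a read spliced to another site there can be among them. Another annotated junction overlapping the intron, with an end at least 12 nt away, was used in 94 of the 304 introns (30.9%, against 12.8% of eligible introns). In those 94 the reads on other junctions, summed where several were used, came to a median of 23.1% of the reads counted as unspliced in WT. They came to more than 50% in 31 introns. The first intron of IARS1, the cytosolic isoleucyl-tRNA synthetase gene, was such a case, with 185 reads on another junction beside 188 unspliced reads in WT (98.4%) and 102 beside 104 in K700E. The MPHOSPH9 intron (39 summed over 4 junctions beside 40 in WT, 97.5%) and VWDE intron 19 (40 beside 42, 95.2%), both described below, were alike in this. At these 3 introns the reads counted on other junctions nearly equalled those that lacked the annotated one. Several junctions may share a read, and such a sum is not a share of the unspliced reads. At an AZIN1 intron it was 64 beside 32 unspliced reads in WT. In the remaining 210 introns no such junction was used. Their medians over the 104 with at least 10 reads in every sample were 36.9% and 37.3% in WT against 42.1% and 40.0% in K700E, close to the values of the whole set. Junctions with both ends less than 12 nt away were not counted, and 203 of the 304 introns overlapped no other intron with a junction read.

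Slowly spliced introns often stood next to each other. In 280 cases the gene had another eligible intron, and the nearest was itself slowly spliced in 112 (40.0%), against 4.92% of all eligible introns. The nearest intron had median spliced shares of 52.4% and 55.8% in WT against 60% and 56.2% in K700E. The median difference between a slowly spliced intron and its nearest neighbour was -15.9 and -15.7 points in WT 1 and WT 2, which chose the introns, -16.3 points in K700E 1 and -9.56 in K700E 2. Against all other eligible introns of the gene it was -26.4 points in K700E 1 and -24.7 in K700E 2. One long read can cover several introns of a gene, so neighbouring values share reads.

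The 29 genes with 3 or more slowly spliced introns, tied introns counted separately, held 126 of the 304. MUC19, which encodes a gel-forming mucin, had 18 among 101 eligible introns, the most of any gene. They lay in a stretch on chr12:40502097-40517852 (introns 66 to 91 of 172 of ENST00000454784). Their medians were 48.2% and 35.2% in WT against 33.3% and 40.7% in K700E, with as few as 1 read in K700E 1. The other eligible introns of MUC19 had medians of 95.7% over the WT samples and 91.6% over the K700E samples. This run lay inside a gene otherwise spliced in nearly all reads, and its medians were low in both genotypes. Only 6 of the 18 had at least 10 reads in every sample, and single values in K700E 1 ran from 0 to 100%. Introns of 156 and of 574 nt each occur more than once in the stretch. Whether it holds repeated copies that split reads was not tested.

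In EIF4A2, which encodes an RNA helicase of translation initiation, all 7 eligible introns were slowly spliced (chr3:186784478-186787802, plus strand, ENST00000323963). Intron 5 was spliced in 169 of 353 and 29 of 60 WT reads (47.9% and 48.3%) and in 10 of 20 and 24 of 59 K700E reads (50% and 40.7%). Intron 6, printed above with its small RNA, stood at 27.4% and 29.3% in WT and at 46.2% and 40.0% in K700E. Both K700E values of intron 6 lay above both WT values, and those of intron 5 overlapped. Intron 8, the SNORA63 host, stood at 18% and 33.3% in WT and at 32% and 35.3% in K700E, again with overlap. Of the 7, 5 had at least 10 reads in every sample.

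HSP90AB1, which encodes the constitutive cytosolic chaperone HSP90 beta, had 6 consecutive slowly spliced introns (3 to 8 of 11, ENST00000371554, plus strand). Intron 3 (chr6:44249584-44249674) stood at 41.6% of 375 and 55% of 129 reads in WT and at 61.8% of 34 and 64.5% of 62 in K700E. Intron 7 stood at 38.7% and 39.1% in WT against 72.7% and 59.5% in K700E, from 11 reads in K700E 1. Intron 8 stood the other way, at 58.8% and 59.3% in WT and at 36.4% of 11 and 42.3% of 26 reads in K700E. Introns 7 and 8 stood on opposite sides of their WT values, each with an edgeR adjusted p of 0.985. The WT values of intron 8 lay near the 60% limit of the choice. The remaining eligible introns of HSP90AB1 had medians of 81.9% in WT and 85.6% in K700E.

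**Figure D3:**
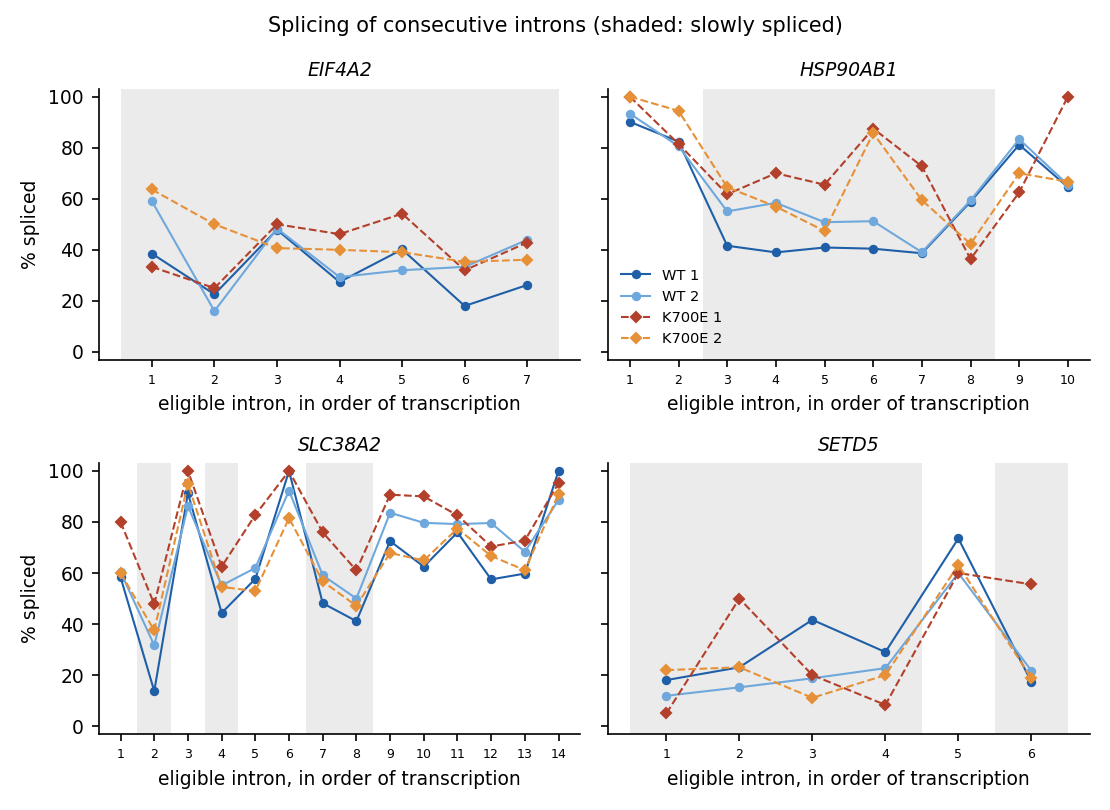
Percent of reads spliced (y axis) at the eligible introns of EIF4A2, HSP90AB1, SLC38A2 and SETD5 in order of transcription (x axis), with a line per sample; shading marks the slowly spliced introns. All 7 EIF4A2 introns are shaded, with 6 of 10 in HSP90AB1, 4 of 14 in SLC38A2 and 5 of 6 in SETD5, and in SLC38A2 all 4 samples have their lowest value at the second eligible intron.

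In the long non-coding gene SNHG1, a snoRNA host, 5 of 8 eligible introns were slowly spliced, with medians of 22.6% in WT 1, 14.3% in WT 2, 12.5% in K700E 1 and 15.4% in K700E 2. None of the 5 had 10 reads in every sample, and the gene's other eligible introns stood lower still, at medians of 10.2% in WT and 7.29% in K700E. VWDE had 5 of 24, with medians of 29.3% in WT 1, 36.3% in WT 2, 48.0% in K700E 1 and 31.8% in K700E 2, while its other eligible introns had medians of 94.2% and 90%. Among the 5, introns of 93 and 92 nt are a tied pair with the same counts in every sample. Both K700E medians are the values of that pair. VWDE intron 8 (chr7:12374763-12375009, minus strand), the most deeply read of the 5, stood at 24.8% of 210 and 36.3% of 146 WT reads and at 30.0% of 90 and 21.5% of 172 K700E reads. These groups overlapped.

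Some runs differed as much between replicates as between genotypes. In the pseudogene SMG1P6 on chromosome 16, 7 introns had medians of 26.7% and 10.8% in WT against 4.94% and 36.7% in K700E, so that the lowest and the highest sample were both K700E. BOLA2, also on chromosome 16, had 3 such introns, with medians of 13.2% and 15.8% in WT against 5.68% and 27.9% in K700E. These belong to duplicated families in which reads may be split between near-identical copies, and their values are uncertain. Of the 304 introns 26 lay in such families or pseudogenes, 16 of them on chromosome 16. Of the 19 introns below 10% in K700E 1, 7 lay outside these families. Without the families, 70.5% of introns stayed between 10 and 60% in both K700E samples.

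Several gene lists for RNA processing and translation held many of the slowly spliced introns. The lists were written with earlier results of these data known. Of the 304 introns 88 lay in genes of any list (28.9%, against 13.3% of eligible introns). Of 28 eligible introns in genes of SR proteins and related splicing regulators, 10 were slowly spliced (35.7%). The share was 15 of 48 (31.2%) in hnRNP and PTB protein genes and 19 of 49 (38.8%) in snoRNA host genes. It was 17 of 68 (25.0%) in translation factor genes and 12 of 50 (24.0%) in chaperone genes. All of these shares stand beside 4.92% for eligible introns in general. A slowly spliced intron was found in 8 of 12 SR, 7 of 10 hnRNP and 8 of 10 snoRNA host genes with eligible introns. The count was 6 of 13 translation factor genes and 6 of 11 chaperone genes, against 182 of all 892 genes. EIF4A2 alone held 7 of the 17, HSP90AB1 6 of the 12, and SNHG1 and GAS5 5 each of the 19. Introns of a gene can share reads. The share was 1 of 87 in core spliceosome genes (1.15%, in the SF3B1 partner gene SF3B3) and 3 of 217 (1.38%) in genes of DNA replication and damage response. It was 2 of 27 (7.41%) in cytosolic ribosomal protein genes and 7 of 91 (7.69%) in chromatin modifier genes. Oxidative phosphorylation genes had 1 of 12 (8.33%) and haem, iron and red cell genes 1 of 59 (1.69%). The lists for transcription elongation and termination (0 of 16) and for cryptic 3′ splice site use when SF3B1 is mutated (0 of 26) had too few eligible introns to set apart from the general share. Eligible introns of the RNA-processing lists were also shorter, with medians of 370.5 nt for SR genes and 436 nt for hnRNP genes against 1042 nt for the core spliceosome, and the part of length in these shares was not tested.

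Among splicing regulators, SR proteins bind exonic enhancers and recruit spliceosome components. The SR list had medians over its 7 introns with enough reads of 29.3% and 24.0% in WT against 33.3% and 24.6% in K700E. Its intron with the most reads lay in SRRM1 (chr1:24646790-24647078, plus strand), the gene of a splicing coactivator, at 12.8% of 141 and 19.2% of 26 WT reads and at 22.2% of 18 and 24.6% of 57 K700E reads. Both K700E values were above both WT values by a few points. The SRSF10 intron with the U12-type letters stood at 22.9% and 15.0% in WT and at 50% and 11.8% in K700E, from 4 and 17 reads.

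Proteins of the hnRNP class coat nascent RNA and can repress splice sites. Over 9 introns with enough reads the medians were 29.3% and 38.9% in WT against 51.4% and 50% in K700E. Both K700E values lay above both WT values in 5 of the 9 and below in 0. All 304 introns were chosen for low WT values, and over the 159 with enough reads 31 lay above (19.5%) and 14 below (8.81%), while of all introns tested 9.19% lay above and 19.9% below. The 5 lie in 3 genes (HNRNPK, HNRNPU and HNRNPA2B1), and no difference between this list and the others was tested. The 3 introns of HNRNPK are adjacent and share reads. Intron 2 (chr9:83978280-83978372, minus strand) had 55 of 151 and 36 of 74 WT reads spliced (36.4% and 48.6%) and 12 of 17 and 38 of 49 K700E reads (70.6% and 77.6%). HNRNPU intron 2, printed above, had 18 of 40 and 20 of 42 WT reads spliced (45.0% and 47.6%) and 17 of 23 and 33 of 45 K700E reads (73.9% and 73.3%). Its means were 46.3% ± 1.9 and 73.6% ± 0.4 (SD, n = 2 each), with no overlap between genotypes.

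In genes known for detained introns, which are kept in polyadenylated nuclear RNA, 6 of 62 eligible introns were slowly spliced (9.68%). Intron 4 of CCNL1 (chr3:157152242-157153035, minus strand), the cyclin L1 gene, had 32 of 206 and 16 of 59 WT reads spliced and 6 of 13 and 13 of 36 K700E reads. These are 15.5% and 27.1% against 46.2% and 36.1%, with no overlap. The list did not follow it: over its 4 introns with enough reads the median difference was -7.60 points, and the medians were 17.1% in WT 1, 29.3% in WT 2, 18.6% in K700E 1 and 27.4% in K700E 2. The other 3, in NKTR and DDX5, overlapped between genotypes, with differences from -8.39 to -7.46 points. Among other gene groups, the HSPA8 intron printed above stood at 29.1% and 53.8% in WT and at 100% of 5 and 57.1% of 21 reads in K700E. FTL, the ferritin light chain gene and the sole haem and iron list member, had its first intron (chr19:48965610-48965769) at 59.8% and 57.3% in WT against 66.7% and 61.7% in K700E. TXNIP, which encodes a thioredoxin-binding protein, had 4 slowly spliced introns, and intron 2 (chr1:145995292-145995403) stood at 20.3% and 31.0% in WT and at 33.3% and 21.4% in K700E. Its first K700E value rests on 9 reads, and the groups overlap.

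The list members with the most reads in the remaining groups had overlapping or thinly covered values. RPL4, a ribosomal protein gene whose intron 2 holds SNORD18A, stood at 35.3% and 55.6% in WT and at 33.3% and 60% in K700E. ATP5F1B, an ATP synthase subunit gene with SNORD59A in intron 2, stood at 20.6% and 57.4% in WT and at 75% of 8 and 50% of 26 reads in K700E. The SF3B3 intron stood at 51.9% and 47.8% in WT and at 44.4% of 9 and 28.1% of 32 reads in K700E, and the first FANCI intron, of a DNA repair gene, at 46.8% and 55.7% and at 56.0% and 48.1%. At the FANCI intron 50 reads, summed over 6 other junctions, stood beside 52 unspliced reads in WT (96.2%).

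The difference between K700E and WT was tested at every intron with edgeR's quasi-likelihood test on spliced and unspliced reads, with Benjamini-Hochberg adjustment over all 5093 introns tested. None of the 159 slowly spliced introns passed an adjusted p of 0.05, while 5 of all 5093 did (0.0982%), 1 of them higher in K700E (0.0196%). Of the 159, 8 had an unadjusted p under 0.05, all 8 higher in K700E, beside 3.06% of all introns. DESeq2 and limma called 0 of the 159 as well, with 2 each at an unadjusted p under 0.05. Both K700E values were above both WT values in 31 of the 159 (19.5%; 9.19% of all introns tested) and below in 14 (8.81%; 19.9% of all). The remaining 114 overlapped. With at least 20 reads per sample, 15 of 61 lay above (24.6%; 8.97% of all) and 5 below (8.20%; 24.5% of all). The median difference was 2.68 points (quartiles -3.87 and 9.70; 97 higher, 62 lower), against -1.67 points for all introns tested. It was 9.68 points where at least 50 reads were required in both WT samples. The 2 WT values of an intron differed by a median of 10.9 points and the 2 K700E values by 12.5.

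Because WT values from 10 to 60% chose the introns, these counts are a description of the set and not a test of genotype. With the choice made on WT 2 alone and WT 1 as the comparison, the median difference was -2.09 points. With the choice on WT 1 and WT 2 as the comparison it was 1.15 points, and with the rule applied to the K700E samples it was -2.77 points. The direction of the median therefore depended on which samples chose the introns.

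**Figure D4:**
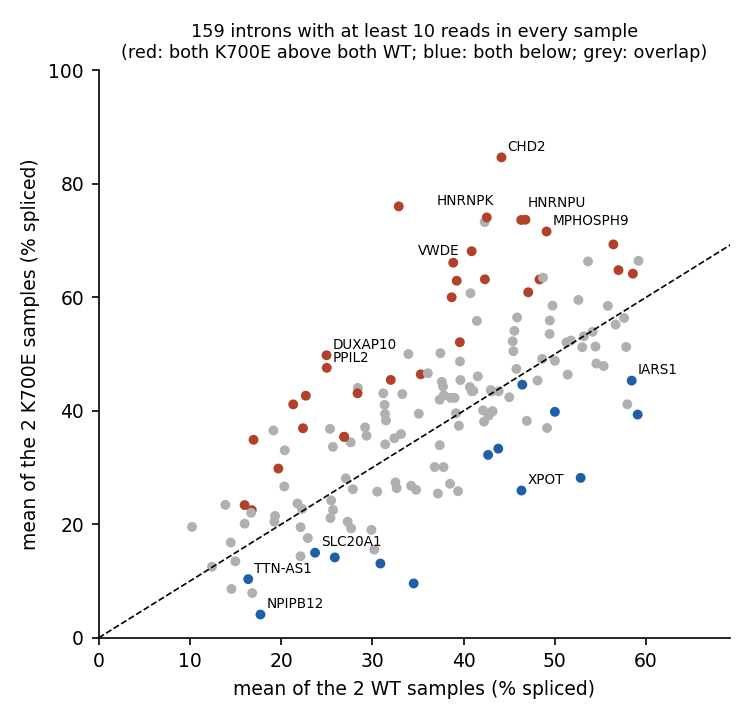
Mean percent spliced over the 2 K700E samples (y axis) against that over the 2 WT samples (x axis) for the 159 slowly spliced introns read 10 times or more in each sample, with the line of equal values dashed. Red points (31) have both K700E values above both WT values, blue points (14) both below, and CHD2 lies farthest above the line among the labelled introns.

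The largest differences upward came with CHD2, HNRNPU, VWDE, DUXAP10, PPIL2 and MPHOSPH9, among introns read 20 times or more in each sample whose groups did not overlap. The first intron of CHD2, which encodes a chromatin remodeller, lies in the 5′ UTR (chr15:92900825-92901166, plus strand, 342 nt). It had 27 of 80 and 18 of 33 WT reads spliced (33.8% and 54.5%) and 27 of 29 and 80 of 105 K700E reads (93.1% and 76.2%). Wilson intervals ran from 24.4 to 44.6% and from 38.0 to 70.2% in WT, and from 78.0 to 98.1% and from 67.2 to 83.3% in K700E. The difference was 40.5 points and the log2 odds ratio 2.57 ± 0.67 (standard error, n = 2 each). The adjusted p by edgeR was 0.101. Another junction was read 18 times beside 68 unspliced reads in WT and 10 times beside 27 in K700E. It passed with at least 20 reads in every sample (edgeR adjusted p = 0.0269), with ratios above 1 left out (0.0369) and without WT replicate 2 (0.0140). Over its alternatives the adjusted p ranged from 0.0140 to 1.00.

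Intron 3 of PPIL2 (chr22:21670612-21670996, plus strand), a cyclophilin-type isomerase gene, had 8 of 52 and 18 of 52 WT reads spliced (15.4% and 34.6%) and 11 of 27 and 31 of 57 K700E reads (40.7% and 54.4%). In the pseudogene DUXAP10 the values were 14.8% and 35.1% in WT against 53.6% and 46.0% in K700E, and in MPHOSPH9, a centriole protein gene with the other junction described above, 51.5% and 46.7% and then 68.2% and 75%. Intron 19 of VWDE stood at 22.5% of 40 and 59.3% of 27 WT reads and at 69.6% and 66.7% in K700E, so that WT 2 lay nearer to the K700E samples than to WT 1. HNRNPU, PPIL2, VWDE, DUXAP10 and MPHOSPH9 each had an edgeR adjusted p of 0.985. The HNRNPK introns 3 and 2 had smaller ones, 0.504 and 0.974, with differences of 43.1 and 31.5 points; intron 3 stood at 26.9% and 38.9% in WT and at 81.8% of 11 and 70.2% of 47 reads in K700E and was picked for mention once its values had been seen.

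The intron with the most reads of the 304, the first intron of CPED1 (chr7:120988913-120989390, plus strand, 5′ UTR), had 47 of 164 and 210 of 375 WT reads spliced and 65 of 98 and 90 of 150 K700E reads. These are 28.7% and 56.0% in WT against 66.3% and 60% in K700E. The means were 42.3% ± 19.3 and 63.2% ± 4.5 (SD, n = 2 each), a difference of 20.8 points (edgeR adjusted p = 0.985). The WT samples lay farther from each other than the genotype means did. Without WT replicate 2 the difference was 34.5 points and passed (edgeR adjusted p = 0.0447), and without WT replicate 1 it was 7.16 points. Over its alternatives the adjusted p ranged from 0.0447 to 1.00.

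Downward, the largest differences were those of XPOT, NPIPB12, IARS1, SLC20A1 and TTN-AS1, the 5 introns with 20 reads in every sample that lay below WT in both K700E samples. XPOT encodes the exportin of transfer RNA, and its intron 13 (chr12:64425183-64425337, printed above) had 34 of 72 and 20 of 44 WT reads spliced and 8 of 29 and 9 of 37 K700E reads. These are 47.2% and 45.5% against 27.6% and 24.3%, a difference of -20.4 points. The means were 46.3% ± 1.2 and 26.0% ± 2.3 (SD, n = 2 each), and the edgeR adjusted p was 0.985. Another junction was read 4 times beside 62 unspliced WT reads. The first IARS1 intron (chr9:92289427-92293440, minus strand), which holds MIR3651 and SNORA84, stood at 57.9% of 114 and 58.9% of 341 WT reads and at 48.5% of 66 and 42.1% of 121 K700E reads. That is a difference of -13.1 points with no overlap, at an intron whose unspliced reads were nearly matched by another junction.

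NPIPB12 on chromosome 16, of a duplicated family and so uncertain, stood at 25.0% and 10.5% in WT and at 4.88% and 3.33% in K700E. Intron 3 of the phosphate transporter gene SLC20A1 stood at 26.9% and 20.5% in WT against 20.0% and 10.0% in K700E. The TTN-AS1 intron, antisense to the titin gene, stood at 18.8% and 14% and at 9.09% and 11.6%, and reads of a gene and its antisense partner may not be told apart. The last 2 differed by -8.72 and -6.05 points, less than the median gap between the WT replicates of an intron.

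**Figure D5:**
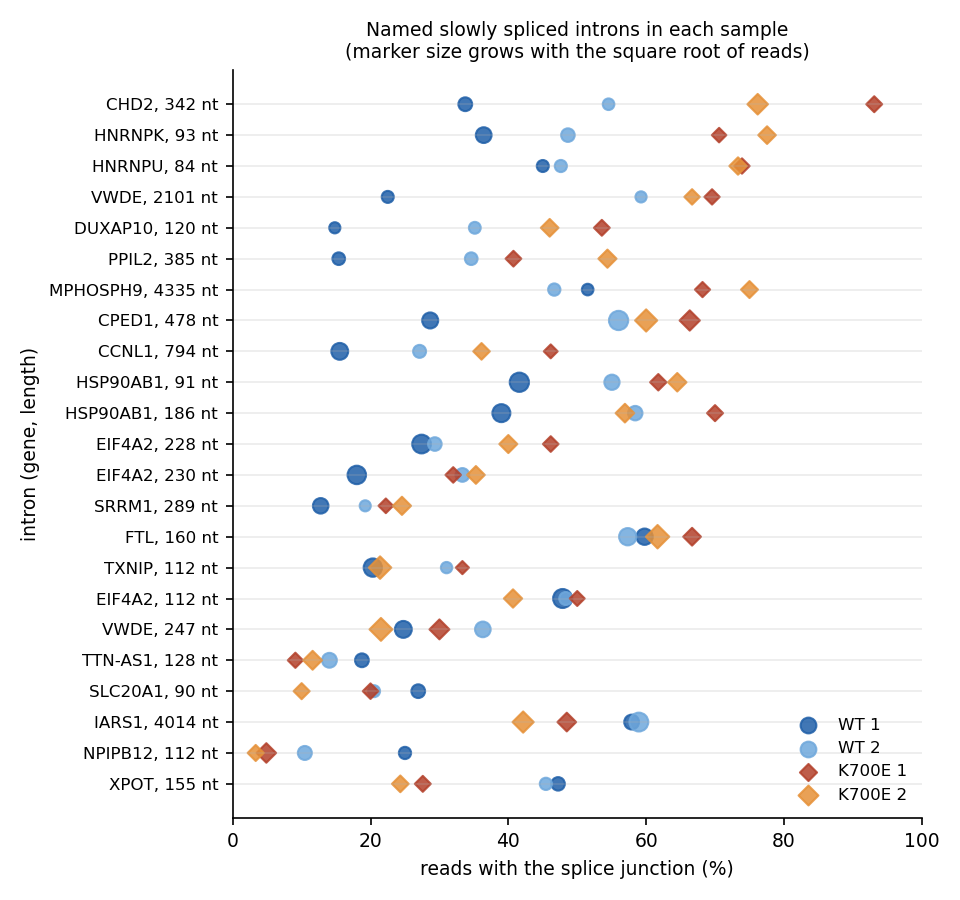
Percent of reads with the splice junction (x axis) in each sample for named slowly spliced introns (y axis, gene and length), ordered by the difference between K700E and WT; circles are WT, diamonds K700E, and marker size grows with the square root of reads. CHD2 stands at 33.8 and 54.5% in WT against 93.1 and 76.2% in K700E, XPOT at 47.2 and 45.5% and at 27.6 and 24.3%, and several of the introns between overlap.

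At the edges of the rule, the SMG1P6 intron from 29436630 to 29437181 was spliced in 10.3% and 10.1% of WT reads and a TIMM10B intron in 10.0% and 12%. Just outside, an NPIPB12 intron stood at 15.4% and 4.00% and a CCDC14 intron at 0% of 20 and 17.9% of 28 reads. Near 60%, HSP90AB1 intron 8 stood at 58.8% and 59.3% and an SBNO1 intron at 58.3% and 60%. Just outside were ARL15, at 60.5% and 59.6%, and an HNRNPA2B1 intron, at 45.6% and 74.6%. Another 344 eligible introns had 1 WT sample in the range and the other outside it, and 113 were spliced in less than 10% of reads in both WT samples.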

How the data were processed

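Nascent RNA bound to chromatin was read with PacBio long reads in 2 WT and 2 K700E samples. Reads were trimmed with cutadapt and aligned with minimap2 to hg38, per the submitters' processing notes, with versions and the assignment of reads to introns not given in the sources used here. Deposited tables hold counts of reads over each intron and counts of reads with its junction, and the authors' deposited ratio of the 2, the splicing efficiency. The ratio above 1 that 2.23 to 4.16% of entries held was set to 1. Introns were placed on GENCODE 29 by transcript and intron number (87.3 to 87.6% of entries), with 0 sample columns unused, and counted once per position.

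Spliced and unspliced counts were fitted with edgeR 4.0.16 (R 4.3.3), with a coefficient for each sample, the genotype effect on the spliced share as an interaction and a dispersion of 0, for introns read at least 10 times in each sample. DESeq2 1.42.0 and limma 3.58.1 were alternatives, and pandas 2.3.3, numpy 2.4.6 and scipy 1.17.1 (Python 3.11.15) the other tools. The fit was tested on simulated data. Shares carry 95% Wilson intervals and medians binomial order-statistic intervals. Intervals over introns treat the introns as independent, and hold no spread between samples. Tables of 3′ end positions were not analysed here. The introns and gene lists were chosen with earlier results of these data known. Named introns are those called, the 10 with the most reads, the up to 6 with the largest difference in each direction among introns with 20 reads or more in each sample whose groups do not overlap, genes with 3 or more such introns (at most 6), the intron with the most reads in each list, those nearest the thresholds and those with U12-type letters. Alternatives covered the read minimum, the range of shares, overlap, tool, dispersion and each sample left out in turn.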

Additional observations from a re-analysis of the deposited data

How the results depend on the processing

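These limits bear on most values: K700E replicate 1 had a median of 10 reads per slowly spliced intron, and 145 of the 304 introns had under 10 reads in some sample. The set itself depended on the rule. It held 38 introns with at least 50 reads in both WT samples, 122 with shares from 20 to 50%, and 727 to 1027 where the rule read a single WT sample. At 50 reads the median difference between K700E and WT was 9.68 points, the median length 209.5 nt, the distance to the transcript end 6645.5 nt and the share with a small RNA gene 15.8%. With members chosen on WT 2 against WT 1 that difference was -2.09 points and with the rule applied to K700E -2.77, alternatives added after the data were seen, and 2.69 to 3.59 with a sample left out. The share staying from 10 to 60% in both K700E samples was 54.1% at 20 reads in every sample and 76.7% for the narrower range. It was 70.5% without duplicated families and as low as 44.3% with a WT sample left out. With a K700E sample left out, the share was counted in the other alone, at 71.1% in K700E 1 and 84.9% in K700E 2. With a WT sample left out the median length ran from 320 to 386 nt, the share with a retained-intron transcript from 18.3 to 22.2% and with a small RNA gene from 3.12 to 3.58%. Against all other eligible introns the difference in K700E was -25.6 points, and against the nearest -16.3 to -9.56 with a K700E sample left out. By edgeR's quasi-likelihood test with Benjamini-Hochberg adjustment, 1 slowly spliced intron was called at 20 reads in every sample, 1 with ratios above 1 left out and 0 to 2 with a sample left out, the 2 being CHD2 and CPED1 without WT replicate 2. Over all introns 5 were called, 2 with estimated dispersion, 0 by DESeq2, 0 by limma, 3 with the replicate block and 0 to 12 with a sample left out. Deviations of same-numbered samples were nearly uncorrelated (r = -0.0874 over 6141 introns). With the counting error at these read numbers, this value cannot tell whether the numbers mark a shared batch. With the replicate block 0 slowly spliced introns were called. Of 215 alternative values for 20 named introns, 211 kept their direction and side of the threshold, 4 passed it and 0 reversed. The cause of these changes was not tested.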
